A study of Mus musculus with 9 samples.

Results

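Of the 24594 genes measured in semimature CD4 single-positive (SP4) OT-II thymocytes, 9 genes of the PI3K and FOXO pathway were examined: Pik3cd, Pik3r1, Pik3ip1, Inpp5d, Phlpp1, Akt1, Akt2, Foxo1 and Foxo3. They are defined by gene symbol, and all 9 were in the table. Their transcript levels are given as RPKM, that is, exonic reads divided by the exon length of the gene and by library depth. Of the 9, 8 reached an RPKM of 1 in 2 or more libraries and entered the tests, which covered 11569 genes. Foxo3 did not, and its levels are described only.

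The 9 libraries came from mixed bone marrow chimeras in 4 groups. Each lethally irradiated host received a 1:1:3 mix of marrow from OTII-DKO, OTII-ctl and non-transgenic wild-type donors, and thymocytes were sorted after 4.7 weeks of reconstitution. Both OT-II donors carry a transgenic T cell receptor specific for an ovalbumin peptide. OTII-ctl donors were Nr4a1+/+ Nr4a3+/+ and F1 of BoyJ with B6.Cg-Tg(TcraTcrb)425Cbn/J, and OTII-DKO donors were Nr4a1-/- Nr4a3-/- on C57BL/6, so genotype and donor background changed together and cannot be told apart. WT hosts were BoyJ. RIP-mOVA hosts were F1 of BoyJ with the C57BL/6 transgenic strain Tg(Ins2-TFRC/OVA)296Wehi/WehiJ and express membrane-bound ovalbumin under the rat insulin promoter, which is active in pancreatic beta cells and in medullary thymic epithelium. So described, host strain and the ovalbumin transgene changed together and cannot be told apart. The paper's methods instead describe WT and RIP-mOVA hosts alike as F1 offspring of a cross with BoyJ. The sort took CD4+ CD8- CD69+ cells bearing Vα2 and Vβ5, with congenic markers separating the donors. There were n = 2 libraries of OTII-ctl and n = 3 of OTII-DKO from WT hosts, and n = 2 of each from RIP-mOVA hosts. The ages of the mice were not given in the sources used here. In 4 mice, the OTII-ctl and the OTII-DKO library came from the same animal.

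Phosphoinositide 3-kinase (PI3K) is recruited to the plasma membrane by antigen receptor, costimulatory and cytokine signals and makes the lipid PIP3, which brings the kinase AKT to the membrane for activation. Active AKT phosphorylates the FOXO transcription factors, which are then held in the cytoplasm. In resting T cells nuclear FOXO1 maintains genes of survival, homing and quiescence, such as Il7r and Klf2. Lipid phosphatases, the inhibitory protein encoded by Pik3ip1 and AKT phosphatases act against the pathway. Most of its regulation is by phosphorylation and location of proteins, which transcript levels do not measure.

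The targeted genes were read first as a check of the labels. Nr4a1 was at 60.7 and 86.1 RPKM in OTII-ctl and at 60.1, 80.2 and 87.7 RPKM in OTII-DKO libraries from WT hosts, and at 260 and 229 RPKM in OTII-ctl and 282 and 235 RPKM in OTII-DKO libraries from RIP-mOVA hosts. Nr4a3 was at 0.181 to 0.665 RPKM in WT hosts, at 3.72 and 5.66 RPKM in OTII-ctl from RIP-mOVA hosts and at 14.1 and 16.5 RPKM in OTII-DKO from RIP-mOVA hosts. Neither transcript was lower in the DKO-labelled libraries, so the genotype rests on the labels throughout, and a gene-level value does not tell whether the deleted part is read. Depth, recovered from the steps between low values, was 15520000 to 25050000 reads per library. In every library Cd4 was at 189 to 241 RPKM and Cd69 at 76.2 to 138 RPKM, while Cd8a was at 1.76 to 7.60 RPKM. Cd8b1, which encodes the other chain of the CD8 coreceptor, was at 54.5 to 96.4 RPKM. Runx3, the remaining gene of the CD8 lineage list, was at 3.08 to 5.64 RPKM. The CD8- sort was made on surface protein, which transcript levels do not measure. Whether the Cd8b1 level goes against it was not tested.

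In WT hosts and in RIP-mOVA hosts the pathway genes covered a wide range of levels. Over the 9 libraries Pik3cd was highest, with a mean of 53.0 ± 11.0 RPKM (SD), followed by Foxo1 at 34.1 ± 3.02, Akt1 at 30.8 ± 8.16, Pik3ip1 at 30.6 ± 8.52, Inpp5d at 26.7 ± 4.89, Akt2 at 21.4 ± 1.38, Pik3r1 at 8.88 ± 1.64, Phlpp1 at 1.25 ± 0.258 and Foxo3 at 0.743 ± 0.181 RPKM. Pik3cd was above Foxo1, Akt2 above Pik3r1 and Pik3r1 above Phlpp1 in 9 of 9 libraries. The order in the middle did not hold in every library, since Akt1 was above Pik3ip1 in 4 of 9 libraries and Foxo1 above Akt1 and Pik3ip1 above Inpp5d in 6 of 9 each. The order also depends on the exon length used. The deposited exon lengths were 1.00 to 2.07 times the merged exon lengths of GENCODE vM21. Per kilobase of the latter, Pik3cd was at 107 and Pik3ip1 at 63.3, ahead of Inpp5d at 43.6, Akt1 at 41.1, Akt2 at 38.0 and Foxo1 at 34.1 RPKM. Comparisons of 1 gene between libraries do not depend on this length.

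**Figure D1:**
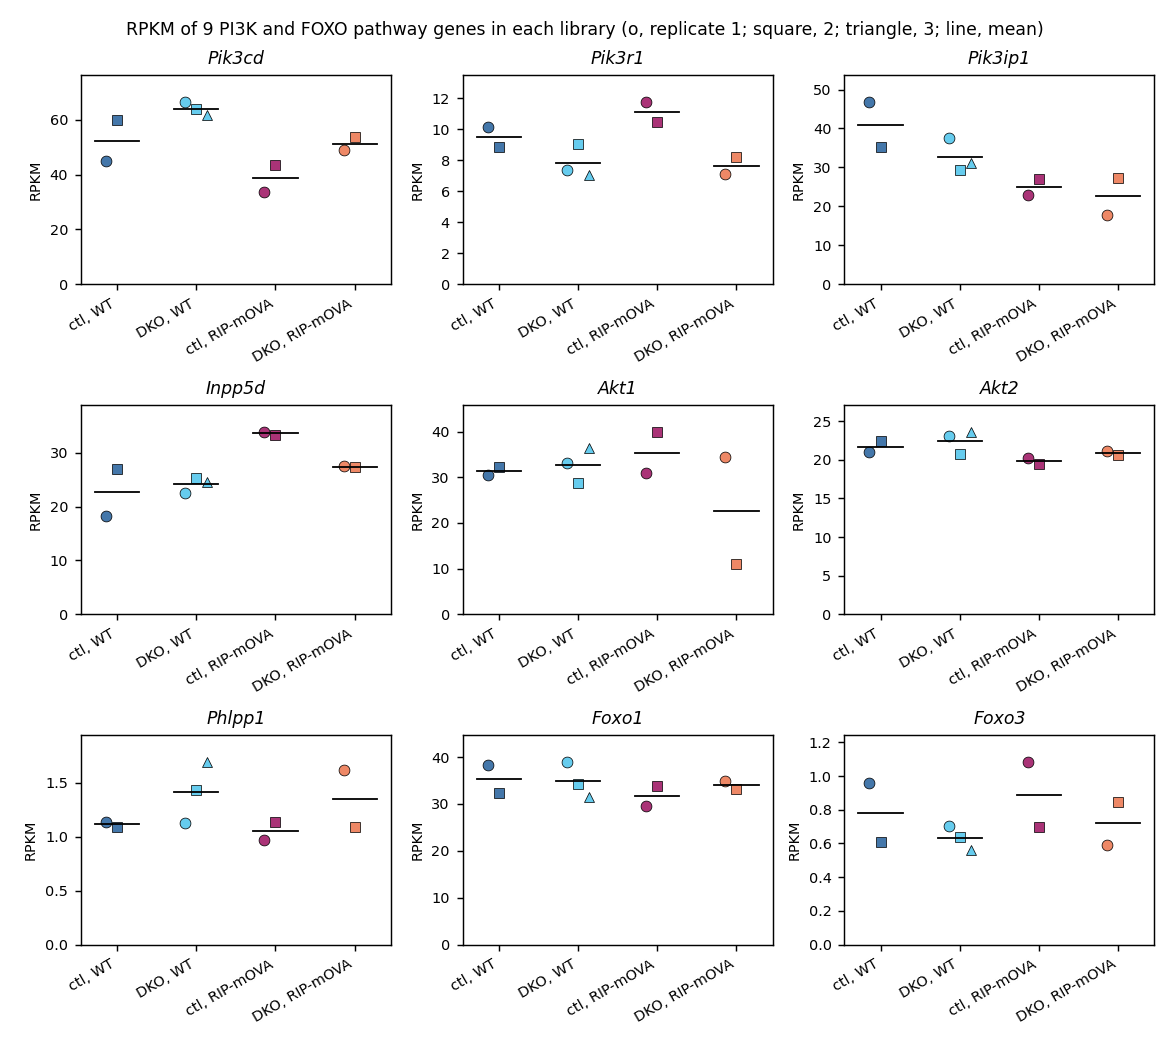
RPKM of each pathway gene (y axis, from 0) in each of the 9 libraries, by group of donor genotype and host (x axis); symbols mark the replicate number and lines the group means. Pik3ip1 lies at 17.8 to 27.4 in RIP-mOVA hosts and at 29.2 to 46.8 in WT hosts, and 1 library sets the low Akt1 mean of OTII-DKO in RIP-mOVA hosts.

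Comparing RIP-mOVA with WT hosts within a donor asks what differs between cells that meet ovalbumin as a self-antigen in the thymus and cells that do not. Any difference of host strain is part of it. Comparing OTII-DKO with OTII-ctl within a host asks what differs with the 2 targeted genes and the donor background together. In limma's test over all 11569 genes, 0 of 8 pathway genes passed an adjusted p of 0.05 in any of these 4 comparisons or in the interaction of host and genotype. The voom model on recovered reads passed 0 of 8 as well, beside 1.72%, 4.12%, 2.54% and 0.0605% of all genes in the 4 comparisons and 0% for the interaction. A call, which also needs a 2-fold change, was made for 1.23% of all genes for the host effect in OTII-ctl, 1.68% for that in OTII-DKO, 1.07% for the genotype effect in RIP-mOVA hosts and 0.0605% for that in WT hosts. On adjusted p alone these shares were 1.89%, 3.35%, 2.21% and 0.0692%. For the interaction the share was 0.0173% by either rule. At an unadjusted p below 0.05 there were 3 of 8 pathway genes for the host effect in OTII-ctl, 2 for that in OTII-DKO, 2 for the genotype effect in RIP-mOVA hosts, 0 for that in WT hosts and 0 for the interaction, beside 14.3%, 17.6%, 21.4%, 7.89% and 9.32% of all genes. Values of the 2 groups stood apart, without overlap of any library, for 5, 3, 4 and 1 of 8 pathway genes in the 4 comparisons, beside 41.6%, 40%, 59% and 20.8% of all genes. The median log2 fold change of the 8 genes was -0.09, -0.08, -0.05 and 0.05 in the 4 comparisons, beside -0.02, 0.03, 0.04 and 0.01 over all genes tested.

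The tests bounded the changes as well. For 6 of the 8 genes the 95% interval of the log2 fold change stayed within 1 of 0, a 2-fold change, in all 4 comparisons. The other 2 were Pik3ip1, whose interval reached -1.18 for the host effect in OTII-ctl, and Akt1, whose interval reached -1.73 for the genotype effect in RIP-mOVA hosts. Phlpp1 is among the 6, but changes of so low a gene are understated on this scale. Its interval therefore does not bound its change in RPKM at 2-fold. These intervals are per gene and not adjusted for the number of genes. In bulk libraries, fewer cells that carry a transcript and less transcript per cell cannot be told apart.

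**Figure D2:**
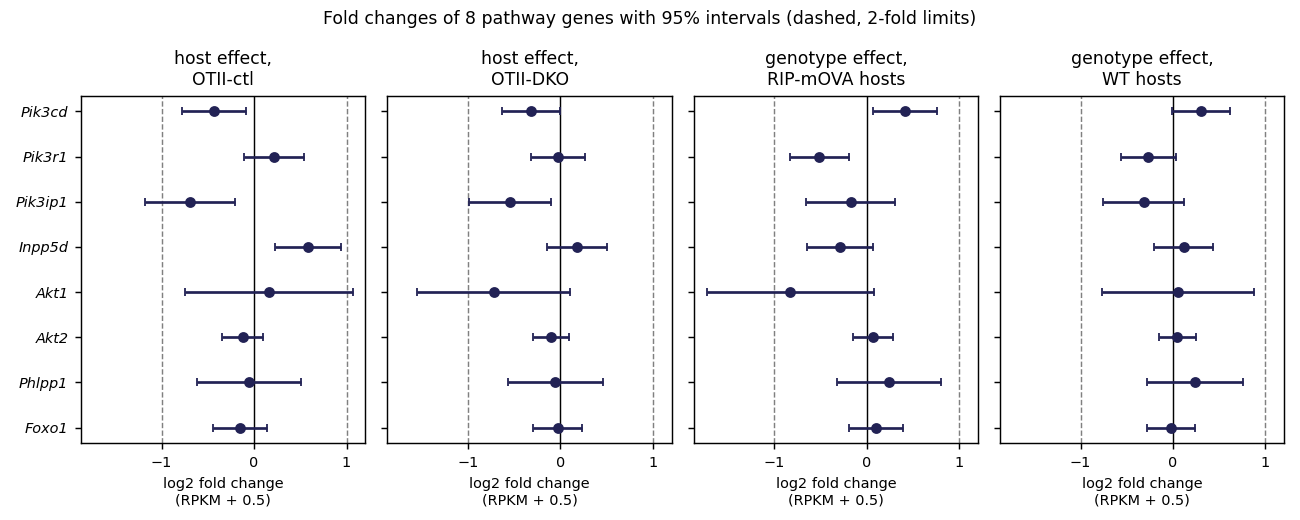
Log2 fold change on the RPKM + 0.5 scale (x axis) of 8 pathway genes (y axis) in the 4 comparisons; points are limma's estimates, bars 95% intervals and dashed lines the 2-fold limits. No gene passed an adjusted p of 0.05, and the widest bars belong to Akt1.

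Pik3cd (Entrez 18707, chr4:149649168-149702571, minus strand, GRCm38), which encodes p110 delta, the catalytic subunit that predominates in lymphocytes, was lower in RIP-mOVA hosts in both donors and higher in OTII-DKO in both hosts, without passing the adjusted test. It was at 44.8 and 59.8 RPKM in OTII-ctl from WT hosts, and at 33.8 and 43.4 RPKM in OTII-ctl from RIP-mOVA hosts. In OTII-DKO it was at 66.6, 63.9 and 61.9 RPKM in WT hosts and at 48.9 and 53.6 RPKM in RIP-mOVA hosts. In none of the 4 comparisons did the libraries of the 2 groups overlap, as for 4.24% of all genes, and Pik3cd was the only pathway gene of which this held. Within an animal Pik3cd was higher in the OTII-DKO library in 4 of 4 mice, beside 27.2% of all genes with 1 direction in all 4. The log2 fold change with host was -0.43 (SE 0.15, adjusted p = 0.23) in OTII-ctl and -0.32 (SE 0.14, adjusted p = 0.278) in OTII-DKO. With genotype it was 0.41 (SE 0.15, adjusted p = 0.173) in RIP-mOVA hosts and 0.30 (SE 0.14, adjusted p = 0.645) in WT hosts. The 4 comparisons share libraries, so these values are not independent of each other.

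Pik3r1 (Entrez 18708, chr13:101680563-101768217, minus strand) encodes p85 alpha, the main regulatory subunit, which stabilizes the catalytic subunit and binds it to phosphorylated receptors. In RIP-mOVA hosts it was at 11.8 and 10.4 RPKM in OTII-ctl and at 7.10 and 8.18 RPKM in OTII-DKO. These groups did not overlap, as for 59% of all genes in that comparison. In WT hosts it was at 10.1 and 8.85 RPKM in OTII-ctl and at 7.39, 9.01 and 7.07 RPKM in OTII-DKO, with overlap. The log2 fold change with genotype was -0.51 (SE 0.14, 95% interval -0.84 to -0.19, adjusted p = 0.0985) in RIP-mOVA hosts and -0.27 (SE 0.13, adjusted p = 0.676) in WT hosts. With median-of-ratios rescaling the former was -0.73 (adjusted p = 0.0269), which passed the test. That rescaling moved the median of all genes in this comparison to -0.17 from 0.04, and relative to the median gene Pik3r1 stood at -0.56 under both. Beside it, reads on 1475 sensory receptor genes, which thymocytes are not known to use, scaled to library depth (RPM), were at 1042 and 1486 in OTII-DKO and at 552 and 293 in OTII-ctl libraries from RIP-mOVA hosts. The sensory receptor covariate was the log2 share of these genes in the summed RPKM of a library. With it the log2 fold change was -0.82 (adjusted p = 0.112). In RIP-mOVA hosts this share was 0.00255 and 0.00343 in OTII-DKO against 0.00107 and 0.000403 in OTII-ctl libraries. There the covariate went with genotype. For any gene, a genotype effect in these hosts that misses the test with the covariate cannot be told apart from it. The host effect on Pik3r1 was 0.22 (SE 0.14) in OTII-ctl and -0.03 (SE 0.13) in OTII-DKO, and both missed the test.

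Pik3ip1 (Entrez 216505, chr11:3330401-3342971, plus strand), which encodes a membrane protein that binds the catalytic subunit and inhibits PI3K, had the largest difference between hosts among the 8 genes when averaged over both donors. It was at 46.8 and 35.2 RPKM in OTII-ctl from WT hosts and at 23.0 and 27.0 RPKM in OTII-ctl from RIP-mOVA hosts. In OTII-DKO it was at 37.5, 29.2 and 31.2 RPKM in WT hosts and at 17.8 and 27.4 RPKM in RIP-mOVA hosts. Within each donor the libraries from RIP-mOVA hosts were below those from WT hosts. The hosts did not overlap, in either direction, for 41.6% of all genes in OTII-ctl and 40% in OTII-DKO. The RIP-mOVA libraries came from 2 mice and the WT libraries from 3 mice. The log2 fold change with host was -0.69 (SE 0.21, adjusted p = 0.172) in OTII-ctl and -0.55 (SE 0.20, adjusted p = 0.195) in OTII-DKO, and the interaction was 0.14 (SE 0.29, adjusted p = 0.88). The mean of the 2 host effects, a contrast added after these values had been seen, was -0.62 (SE 0.15, 95% interval -0.95 to -0.29), with an adjusted p of 0.0365 in limma's test. Libraries of the 2 donors from 1 mouse share their host, but this contrast counted them as independent. Its SE, interval and adjusted p therefore do not measure the spread between mice. At this adjusted p limit 1 of 8 pathway genes passed, beside 6.75% of all genes, and with the 2-fold limit 0 of 8 passed, beside 1.87%. The adjusted p passed in 9 of 19 alternative fits and ranged from 0.00969 to 0.149. It missed 0.05 when replicate 1 of OTII-ctl from WT hosts, replicates 1 or 3 of OTII-DKO from WT hosts, either replicate of OTII-ctl from RIP-mOVA hosts or replicate 1 of OTII-DKO from RIP-mOVA hosts was left out, with log2 fold changes of -0.47 to -0.68. It also missed with a replicate block by number across hosts (log2 fold change -0.63, adjusted p = 0.109), without the filter on low values (0.149), without the intensity trend (0.0856) and with the sensory receptor covariate (0.0636). An exon of the predicted gene Gm12592 lies on the other strand within a Pik3ip1 exon, and whether counting used strand was not stated, so reads of the 2 cannot be told apart.

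The same average over donors was -0.38 (SE 0.10, adjusted p = 0.0653) for Pik3cd and 0.38 (SE 0.11, adjusted p = 0.0659) for Inpp5d. For genotype, averaged over hosts, it was -0.39 (SE 0.10, adjusted p = 0.0691) for Pik3r1 and 0.36 (SE 0.10, adjusted p = 0.104) for Pik3cd. On adjusted p 0 of 8 pathway genes passed for the average genotype effect, beside 3.3% of all genes (0.648% with the 2-fold limit), with 2 of 8 at an unadjusted p below 0.05 against 19.5% of all genes. For the average host effect 3 of 8 had an unadjusted p below 0.05, beside 20.4%. The voom model on recovered reads passed 2 of 8 for the average host effect, Pik3cd (adjusted p = 0.0478) and Pik3ip1, beside 7.52% of all genes, and 1 of 8 for the average genotype effect, Pik3r1 (adjusted p = 0.0497), beside 3.38%. In both models the average host effect of every gene counted libraries of 1 mouse as independent.

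Inpp5d (Entrez 16331, chr1:87620312-87720507, plus strand) encodes SHIP1, the lipid phosphatase of blood cells that removes the 5-phosphate of PIP3. It was at 18.3 and 27.0 RPKM in OTII-ctl from WT hosts and at 33.9 and 33.4 RPKM in OTII-ctl from RIP-mOVA hosts. In OTII-DKO it was at 22.6, 25.4 and 24.6 RPKM in WT hosts and at 27.6 and 27.3 RPKM in RIP-mOVA hosts. Within each donor the libraries from RIP-mOVA hosts were above those from WT hosts, by as little as 27.3 against 25.4 RPKM in OTII-DKO. Across donors the nearest values were 27.3 and 27.0 RPKM. The hosts did not overlap, in either direction, for 41.6% of all genes in OTII-ctl and 40% in OTII-DKO. The RIP-mOVA libraries came from 2 mice and the WT libraries from 3 mice. The log2 fold change with host was 0.58 (SE 0.16, adjusted p = 0.114) in OTII-ctl and 0.18 (SE 0.14, adjusted p = 0.519) in OTII-DKO, and their difference was -0.40 (SE 0.21, adjusted p = 0.551). Without replicate 2 of OTII-ctl from WT hosts the former was 0.86 (adjusted p = 0.0076), and without replicate 1 it was 0.31. Beside this, the summed level of 7 myeloid and dendritic cell markers was 11.6 to 21.8 RPKM in OTII-ctl from RIP-mOVA hosts, 3.99 to 11.3 RPKM in OTII-ctl from WT hosts, 3.25 to 5.88 RPKM in OTII-DKO from WT hosts and 6.01 to 6.92 RPKM in OTII-DKO from RIP-mOVA hosts. The largest of these markers in OTII-ctl from RIP-mOVA hosts was Lyz2 at 18.7 and 8.44 RPKM, while Itgax was at 0 and 0.023 RPKM. In RIP-mOVA hosts Lyz2 and Itgam had the higher mean in OTII-ctl, at 13.6 against 2.47 and 1.44 against 1.24 RPKM. Csf1r, Cd68, Itgax, Siglech and Flt3 had the higher mean in OTII-DKO, so the higher sum in OTII-ctl rests mainly on Lyz2. The part of such cells in the Inpp5d level was not tested.

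Phlpp1 (Entrez 98432, chr1:106171752-106394250, plus strand), which encodes a phosphatase that removes phosphate from AKT, was among the lowest. It had 112 to 297 reads per library, which leaves a counting error of up to 9.45%. Its levels were 1.14 and 1.09 RPKM in OTII-ctl and 1.13, 1.44 and 1.69 RPKM in OTII-DKO from WT hosts, and 0.968 and 1.14 RPKM in OTII-ctl and 1.62 and 1.09 RPKM in OTII-DKO from RIP-mOVA hosts. The groups overlapped in all 4 comparisons, and the log2 fold changes lay between -0.06 and 0.24 with SEs of 0.23 to 0.25. On the RPKM + 0.5 scale changes of so low a gene are understated.

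Akt1 (Entrez 11651, chr12:112653821-112674884, minus strand) and Akt2 (Entrez 11652, chr7:27591552-27640826, plus strand) encode the AKT kinases that carry the signal from PIP3 to FOXO proteins, mTOR regulators and other substrates. Akt2 was the steadiest of the 8 genes, at 20.9 and 22.5 RPKM in OTII-ctl and 23.1, 20.8 and 23.6 RPKM in OTII-DKO from WT hosts, and at 20.2 and 19.5 RPKM in OTII-ctl and 21.2 and 20.6 RPKM in OTII-DKO from RIP-mOVA hosts. Its highest library was 1.21 times its lowest, and 6.13% of all genes tested varied less by that measure with 0.5 RPKM added. All its 95% intervals in the 4 comparisons lay between -0.34 and 0.29.

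Akt1 was at 30.4 and 32.3 RPKM in OTII-ctl and at 33.2, 28.7 and 36.5 RPKM in OTII-DKO from WT hosts, and at 30.9 and 39.9 RPKM in OTII-ctl from RIP-mOVA hosts. In OTII-DKO from RIP-mOVA hosts it was at 34.4 RPKM in replicate 1 and at 11.0 RPKM, from 1053 reads, in replicate 2. The other 8 libraries thus lay between 28.7 and 39.9 RPKM, and replicate 2 was at 0.385 of the lowest of them. Of 4421 genes with a mean of at least 10 RPKM, 26 (0.588%) had 1 library under 0.5 of the next lowest, and in 8 of these it was the same library as for Akt1. That library also had the most reads on sensory receptor genes, 1486 RPM, beside 293 to 1137 RPM in the others. Whether these go together was not tested. The log2 fold change of Akt1 in OTII-DKO was -0.72 (SE 0.37, adjusted p = 0.334) with host, and with genotype in RIP-mOVA hosts it was -0.83 (SE 0.40, adjusted p = 0.265). Without replicate 2 these were 0.08 and -0.03. Without replicate 1 they were -1.52 (adjusted p = 0.00596) and -1.63 (adjusted p = 0.00639) and would be called, on the single low library.

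The 250 bases before each RefSeq transcript start of the 9 genes (16 windows, GRCm38.p6) were searched on both strands for GTAAACA, the core bound by FOXO proteins, and for AAAGGTCA, the NBRE bound by NR4A proteins as monomers. These 2 motifs do not overlap in sequence. A match stood in 1 window, that of an Akt1 start, printed here because it holds the only match. It is chr12:112674885-112675134, minus strand, written 5′ to 3′ with the match to the reverse complement of GTAAACA in capitals.
Akt1: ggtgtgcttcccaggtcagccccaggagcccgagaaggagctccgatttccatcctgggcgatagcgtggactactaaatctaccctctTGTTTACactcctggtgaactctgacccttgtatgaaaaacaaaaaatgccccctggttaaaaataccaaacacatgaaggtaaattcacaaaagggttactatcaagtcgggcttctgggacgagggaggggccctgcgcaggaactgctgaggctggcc
The window lies just before the annotated gene and holds no annotated exon. Of 32851 such windows of all genes, 3.17% held GTAAACA and 1.34% held AAAGGTCA on either strand. A match in letters is a description of the window and not a measured binding site.

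Foxo1 (Entrez 56458, chr3:52268336-52353221, plus strand) encodes the FOXO factor that sustains naive T cell homing and survival genes. It was at 38.4 and 32.4 RPKM in OTII-ctl and 38.9, 34.3 and 31.5 RPKM in OTII-DKO from WT hosts, and at 29.7 and 33.9 RPKM in OTII-ctl and 34.9 and 33.2 RPKM in OTII-DKO from RIP-mOVA hosts. The groups overlapped in all 4 comparisons. Its log2 fold changes lay between -0.15 and 0.10 with SEs of 0.12 to 0.13, and the 95% intervals between -0.44 and 0.39. An exon of Gm20402 on the other strand overlaps a Foxo1 exon, so their reads cannot be told apart without strand.

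Foxo3 (Entrez 56484, chr10:42181841-42276755, minus strand), which encodes a second FOXO factor with overlapping targets, was the lowest of the 9 genes. It was at 0.960 and 0.607 RPKM in OTII-ctl and 0.706, 0.637 and 0.563 RPKM in OTII-DKO from WT hosts, and at 1.08 and 0.697 RPKM in OTII-ctl and 0.589 and 0.848 RPKM in OTII-DKO from RIP-mOVA hosts. Only 1 library reached an RPKM of 1, and the gene had 135 to 200 reads per library, a counting error of up to 8.61%. With no filter on low values, over 24594 genes, its log2 fold changes lay between -0.18 and 0.11 with adjusted p of 0.67 to 1.

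**Figure D3:**
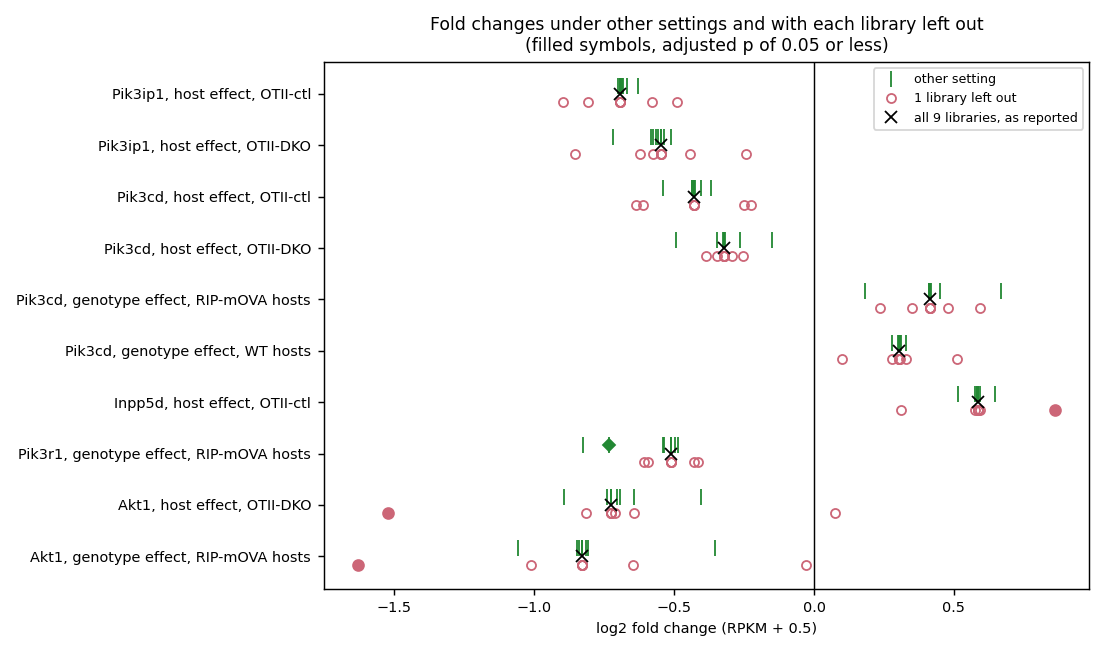
Log2 fold changes (x axis) of the pathway genes with the lowest p or the most uneven group (y axis): crosses are the reported values, green ticks other processing settings and pink circles fits with 1 library left out; filled circles and the green diamond mark an adjusted p of 0.05 or less. The Akt1 values run from -1.52 to 0.08 with host and from -1.63 to -0.03 with genotype when 1 library is left out.

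The rest of the pathway was read from a list of 28 other genes of PI3K, AKT and mTOR signalling, of which 23 passed the filter. In each of the 4 comparisons and in the interaction 0 of 23 passed an adjusted p of 0.05 in limma's test, beside 1.89%, 3.35%, 2.21%, 0.0692% and 0.0173% of all genes. Voom passed 0 of 23 as well, beside 1.72%, 4.12%, 2.54%, 0.0605% and 0%. At an unadjusted p below 0.05 there were 2, 3, 3, 1 and 2 of 23, beside 14.3%, 17.6%, 21.4%, 7.89% and 9.32% of all genes. The lowest adjusted p was 0.108, for Pik3r5, the regulatory subunit p101 that works with p110 gamma, whose log2 fold change with host in OTII-DKO was -0.46 (SE 0.13). Pik3cg, which encodes p110 gamma, had a log2 fold change with host of 0.65 (SE 0.18, adjusted p = 0.12) in OTII-ctl. The medians of the list were 0.09, 0.04, -0.06 and 0.06 in the 4 comparisons, beside -0.02, 0.03, 0.04 and 0.01 over all genes.

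Genes known as FOXO targets were read from a list of 20, all of which passed the filter. It holds genes that other signals also control, and several were known beforehand to change in these libraries, so it is no independent evidence of FOXO activity. For the host effect in OTII-ctl 2 of 20 passed an adjusted p of 0.05, both higher, beside 1.89% of all genes, and in OTII-DKO 6 of 20 passed, 4 higher and 2 lower, beside 3.35%. For the genotype effect in RIP-mOVA hosts 4 of 20 passed, 1 higher and 3 lower, beside 2.21% of all genes, and in WT hosts 1 of 20 passed, which was lower, beside 0.0692%. The list medians were -0.05, 0.05, -0.07 and -0.19. At an unadjusted p below 0.05 there were 12, 12, 11, 9 and 8 of 20 in the 4 comparisons and the interaction. Of all genes, 14.3%, 17.6%, 21.4%, 7.89% and 9.32% had such a p. Since several of the 20 were known beforehand to change, these counts are a description. Targets that passed lay on both sides of 0 for the host effect in OTII-DKO and the genotype effect in RIP-mOVA hosts. The 95% interval of Foxo1 included 0 in all 4 comparisons.

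Bcl2l11, which encodes the pro-apoptotic protein BIM, passed in all 4 comparisons. It was at 6.86 and 6.32 RPKM in OTII-ctl and 1.34, 2.02 and 1.49 RPKM in OTII-DKO from WT hosts, and at 34.6 and 31.7 RPKM in OTII-ctl and 7.93 and 5.51 RPKM in OTII-DKO from RIP-mOVA hosts. Its log2 fold change was 2.25 (SE 0.19) and 1.76 (SE 0.17) with host in OTII-ctl and OTII-DKO, and -2.24 (SE 0.19) and -1.76 (SE 0.17) with genotype in RIP-mOVA and WT hosts. With the mouse as a block the last of these missed the test (-1.72, adjusted p = 0.135). Bcl6, a transcriptional repressor, rose with host by 1.12 (SE 0.21) in OTII-ctl and by 0.86 (SE 0.19) in OTII-DKO. The genotype effect on Bcl2l11 in WT hosts also missed the test without replicate 1 of OTII-ctl or replicate 3 of OTII-DKO from WT hosts (adjusted p = 0.0742 and 0.0549), without the filter on low values (0.134) and in a fit to the libraries compared alone (0.0759). The Bcl6 difference in OTII-ctl missed it without replicate 1 of OTII-ctl or replicates 2 or 3 of OTII-DKO from WT hosts, or replicate 1 of OTII-ctl from RIP-mOVA hosts, with log2 fold changes of 0.85 to 1.12 and adjusted p of 0.0501 to 0.28. It missed as well without the filter on low values (0.167), in a fit to the libraries compared alone (0.169), without the intensity trend (0.0732) and with the sensory receptor covariate (0.0667).

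S1pr1, the receptor that guides thymocytes out of the thymus, was at 37.2 to 53.6 RPKM in the 5 libraries from WT hosts and at 42.0 and 43.2 RPKM in OTII-ctl from RIP-mOVA hosts, against 95.3 and 110 RPKM in OTII-DKO from RIP-mOVA hosts. It rose with host in OTII-DKO by 1.13 (SE 0.11) on the log2 scale and was higher in OTII-DKO than in OTII-ctl by 1.26 (SE 0.12) in RIP-mOVA hosts. With the sensory receptor covariate, which went with genotype in these hosts, the latter missed the test (1.24, adjusted p = 0.0611). Il7r, which encodes the receptor chain for the survival cytokine IL-7, was at 50.1, 49.3 and 56.0 RPKM in OTII-DKO from WT hosts and at 13.7 and 19.2 RPKM in OTII-DKO from RIP-mOVA hosts, a log2 fold change of -1.64 (SE 0.20). In OTII-ctl it was at 32.3 and 39.4 RPKM in WT hosts and at 23.7 and 38.0 RPKM in RIP-mOVA hosts. The interaction was 0.98 (SE 0.17, adjusted p = 0.139) for S1pr1 and -1.40 (SE 0.30, adjusted p = 0.253) for Il7r, so a difference in host effect between the donors was not shown for either.

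Ctla4, which encodes an inhibitory receptor of T cells, rose with host in OTII-DKO by 2.63 (SE 0.35), from 2.08 to 4.94 RPKM in WT hosts to 22.1 and 23.2 RPKM in RIP-mOVA hosts. In OTII-ctl it was also higher in RIP-mOVA hosts, at 11.7 and 20.4 RPKM against 5.1 and 9.5 RPKM, without passing the adjusted test. For the interaction 0 of 20 FOXO targets passed, beside 0.0173% of all genes, so a difference between the donors was not shown. Cited2, a transcriptional coregulator, was at 9.85 and 7.71 RPKM in OTII-DKO and 25.3 and 21.2 RPKM in OTII-ctl from RIP-mOVA hosts, a log2 fold change of -1.36 (SE 0.20) with genotype. Foxp3, the transcription factor of regulatory T cells, was at 0.092 and 0.077 RPKM in OTII-DKO and 1.90 and 3.31 RPKM in OTII-ctl from RIP-mOVA hosts, a log2 fold change of -2.37 (SE 0.40). It was at 0.290 and 0.491 RPKM in OTII-ctl from WT hosts, so it passed the filter on low values only through the 2 OTII-ctl libraries from RIP-mOVA hosts, and its difference and its place among the 4 of 20 are a description and no support. With the mouse as a block the Foxp3 difference missed the test (adjusted p = 0.124), as it did without replicate 1 (0.0916) or replicate 2 (0.113) of OTII-DKO from RIP-mOVA hosts, with a pseudocount of 0.1 (0.068) and with the sensory receptor covariate (0.114). Cited2 missed it without replicate 1 (0.109) or replicate 2 (0.0648) of OTII-ctl or replicate 2 (0.0788) of OTII-DKO from RIP-mOVA hosts, without the filter on low values (0.0543) and with the covariate (0.155). For both genes the covariate went with genotype in these hosts.

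**Figure D4:**
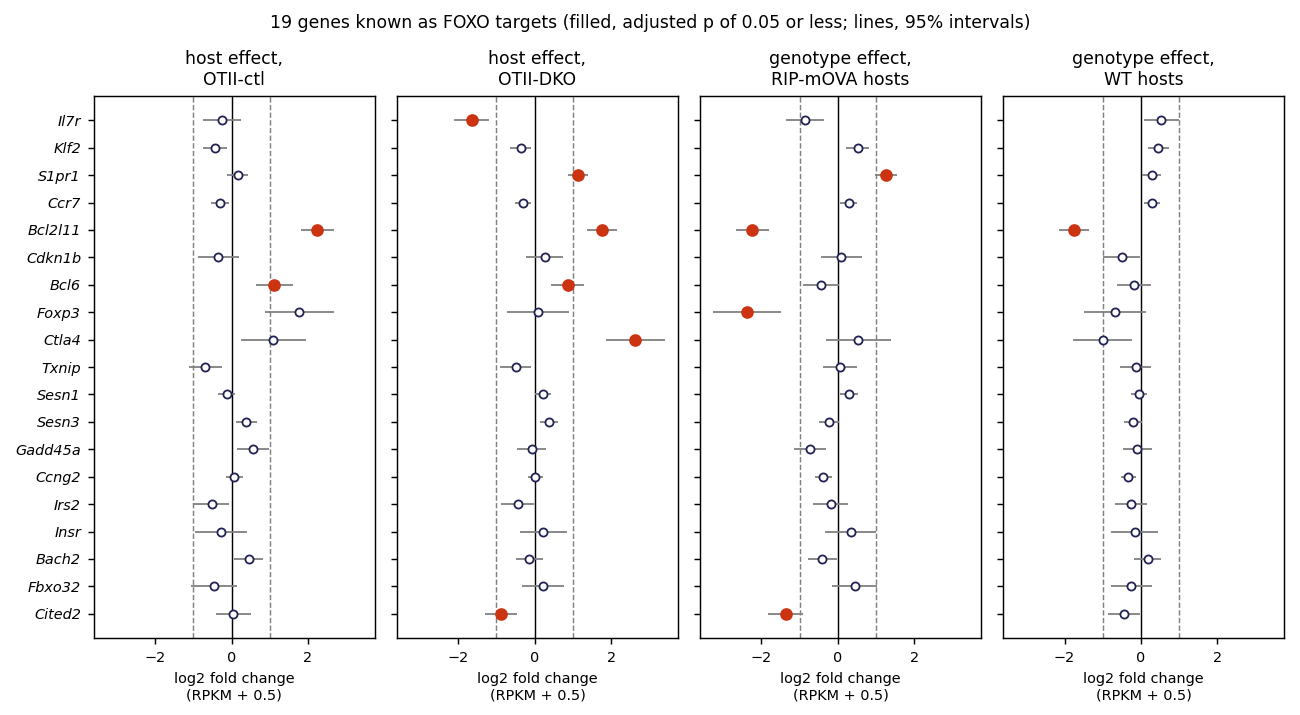
Log2 fold change on the RPKM + 0.5 scale (x axis) of 19 of the 20 genes known as FOXO targets (y axis) in the 4 comparisons; filled points passed an adjusted p of 0.05 and lines are 95% intervals. Bcl2l11 is filled in all 4 panels, and the filled points lie on both sides of 0.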

How the data were processed

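Semimature SP4 OT-II thymocytes were sorted from mixed chimeras, and RNA was made into SMART-seq v4 and Nextera XT libraries. Reads were mapped by the authors with STAR (mm10, GENCODE vM17), PCR duplicates found with Picard were dropped, and exonic reads per Entrez gene were tallied with GenomicRanges. The deposited values are RPKM with 3 decimals. The authors' own tests used a count model. Versions of STAR and Picard, the use of strand and how exon lengths were defined are not given in the sources used here.

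RPKM values were tested as log2(RPKM + 0.5) with limma 3.58.1 in R 4.3.3, after a filter of RPKM at least 1 in at least 2 libraries. Group means were fitted to all 9 libraries, with an intensity trend and Benjamini-Hochberg adjustment over all 11569 genes kept, and a call needed an adjusted p of 0.05 and an absolute log2 fold change of 1. Fits were tested on 5 simulated datasets with 200 changed genes each. Of these genes 96.4% were recovered, and 6.56% of the calls were false. A comparison without planted changes had 12 calls over the 5 datasets. The planted changes were larger than those of the pathway genes, and libraries were drawn as independent. The simulation therefore does not cover changes as small as theirs or libraries that share a mouse. Python 3.11.15, pandas 2.3.3, scipy 1.17.1 and matplotlib 3.10.9 were used for tables and plots. Whole reads were recovered from the RPKM steps and the deposited lengths (100% of the low values checked were within 0.1 of a whole read); counting errors cover counting only, and RNA came from cells without molecular identifiers.

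The pathway genes and lists were chosen with earlier results of these data known. A gene of the FOXO target list is not reported here. Named genes were the 9, Nr4a1 and Nr4a3, and per comparison at most 4 genes of each other list with an adjusted p of 0.05 and the largest changes. Pik3r5, Pik3cg, the markers Cd4, Cd69, Cd8a, Cd8b1 and Runx3, and the myeloid and dendritic cell markers were named outside this rule, after their values were seen. The sensory receptor covariate and cell type marker lists of B cells, thymic epithelium and red cells were read too: their summed levels were 2.72 to 10.5, 2.80 to 12.1 and 0.964 to 25.1 RPKM. Alternatives were other pseudocounts, filters and scalings, fits to fewer libraries, no trend, a covariate, blocks, each library left out, and, added after seeing the data, voom and average effects. Replicate numbers pair the genotypes within a host, since the labels give the same mouse, although deviations of such pairs correlated at -0.24 to 0.01. Across hosts the labels give no shared batch for a number, but deviations of same-numbered libraries correlated at 0.10 to 0.23, and values with that block are given where they change a call. In a group of 2 libraries the deviations mirror each other, so pairs between such groups give the same value for both numbers. These few correlations therefore cannot tell whether a batch or a pairing was present. Separate mice are biological replicates, and precision is limited by 2 or 3 libraries per group.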

Additional observations from a re-analysis of the deposited data

How the results depend on the processing

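No pathway gene was called by both limits in any of the 4 comparisons or the interaction under the planned settings, except when 1 library was left out. Counts called ranged from 0 to 1 of 8 over the fits without 1 library, for the host effect in OTII-DKO and for the genotype effect in RIP-mOVA hosts. In both the 1 gene was Akt1, without replicate 1 of OTII-DKO from RIP-mOVA hosts. On adjusted p alone the count for the average host effect was 1 in place of 0, with libraries of 1 mouse counted as independent. Over all settings and named genes, 1012 values kept their direction and their side of the adjusted p limit, 34 no longer passed, 11 newly passed and 42 changed sign. The causes were not tested. No sign change concerned a value past the limit.

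With median-of-ratios rescaling, which moved the median of all genes to -0.13, -0.17 and -0.19 for the host effect in OTII-DKO, the genotype effect in RIP-mOVA hosts and the interaction, the genotype effect in RIP-mOVA hosts was -0.159 for Akt2 and -0.132 for Foxo1, and the interaction was -0.126 for Pik3cd, -0.0889 for Pik3ip1, -0.21 for Akt2, -0.167 for Phlpp1 and -0.113 for Foxo1. Relative to that median, the genotype effect stood at 0.0115 for Akt2 and 0.0383 for Foxo1, and the interaction at 0.0616 for Pik3cd, 0.0982 for Pik3ip1, -0.0228 for Akt2, 0.0198 for Phlpp1 and 0.0737 for Foxo1. Taken so in the reported fit as well, all 7 kept their sign but the interaction of Phlpp1 (-0.0311 as reported). With quantile normalization the host effect in OTII-DKO was 0.0219 for Foxo1, and for Phlpp1 the genotype effect in RIP-mOVA hosts was -0.262 and the interaction -0.481. With a pseudocount of 1 the interaction for Phlpp1 was -0.000159. With the sensory receptor covariate the host effect was -0.0439 for Akt1 in OTII-ctl and 0.0149 for Phlpp1 in OTII-DKO.

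With the mouse as a replicate block, the genotype effect in WT hosts was -0.0238 for Akt1 and 0.0489 for Foxo1, and replicate 3 of OTII-DKO, which has no partner, no longer informs the estimate. This block changed no call among the pathway genes. With a replicate block by number across hosts, the host effect in OTII-DKO was 0.0452 for Phlpp1, and the average host effect on Pik3ip1 missed the limit (adjusted p = 0.109). Same-numbered libraries in different hosts correlated in their deviations at 0.10 to 0.23, and the number is not given as shared between hosts. These few values cannot tell whether a batch was present.

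With 1 library left out, the host effect in OTII-ctl ranged from -0.0203 to 0.343 for Akt1 and from -0.136 to 0.0215 for Phlpp1. The host effect in OTII-DKO ranged from -0.124 to 0.0716 for Pik3r1, -1.52 to 0.0757 for Akt1, -0.264 to 0.152 for Phlpp1 and -0.101 to 0.0502 for Foxo1. The genotype effect in RIP-mOVA hosts ranged from -0.48 to 0.132 for Pik3ip1. That in WT hosts ranged from -0.16 to 0.39 for Inpp5d, -0.0238 to 0.148 for Akt1, -0.00136 to 0.103 for Akt2 and -0.142 to 0.099 for Foxo1. The interaction ranged from -0.0962 to 0.316 for Pik3cd, -0.161 to 0.45 for Pik3ip1, -0.0326 to 0.0719 for Akt2 and -0.207 to 0.209 for Phlpp1.

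Over all settings the number of genes called in the whole table ranged from 31 to 296 for the host effect in OTII-ctl (142 as reported), 87 to 258 in OTII-DKO (194), 20 to 220 for the genotype effect in RIP-mOVA hosts (124), 2 to 102 in WT hosts (7) and 0 to 165 for the interaction (2). Phlpp1 and Foxo3 are also limited by their few reads.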
